A study of Mus musculus with 8 samples.

Results

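Prostaglandins are lipid signals made from arachidonic acid. Cytosolic phospholipase releases the acid from membranes, cyclooxygenase turns it into the common precursor, terminal synthases make the active forms, a carrier takes them into cells, a dehydrogenase inactivates them there, and receptors on the cell surface read them. In the ovulating mouse follicle the inducible cyclooxygenase and the EP2 receptor of prostaglandin E are known to be needed for normal ovulation and for expansion of the cumulus. The 10 genes described here cover each of these steps: Pla2g4a, Ptgs2, Ptges, Ptges2, Ptges3, Slco2a1, Hpgd, Ptger2, Ptger4 and Ptgfr. They were chosen by name, with results of these arrays already known, and each was read by its probe set with the highest mean signal, so they are 10 of the 19938 genes measured.

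The tissue was the mouse cumulus oocyte complex, an oocyte with its shell of cumulus granulosa cells, taken by puncture of antral follicles 8 h after hCG (human chorionic gonadotropin, 5 IU), which triggers ovulation. The PRKO group was homozygous for a lacZ knock-in that disrupts both isoforms of the progesterone receptor in every cell of the animal, and the PR+/- group carried the same insertion on 1 allele, so that no group with 2 intact alleles was compared. All mice were 21 to 23 days old and had received 5 IU of equine chorionic gonadotropin 44 to 47 h before hCG. Complexes of 3 animals were pooled for each array, with 4 arrays and 12 animals per genotype, and each value below is a log2 signal of 1 probe set on 1 array.

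The arrays resembled each other in depth of signal, with medians of 5.35 to 5.46, and no pair was identical. Pgr, the targeted gene, read 5.84, 5.23, 5.54 and 6.17 in PRKO replicates 1 to 4, against 6.09, 7.34, 6.54 and 7.15 in PR+/- replicates 1 to 4. The highest PRKO array therefore lay above the lowest PR+/- array, and the difference of -1.09 ± 0.26 (SE) had a limma adjusted p of 0.0452. No source used here places the probe set before or behind the lacZ insertion, so it checks the genotype labels only weakly. Oocyte and granulosa markers were present on all arrays: Padi6 and Bmp15 averaged 7.77 and 7.45 in PRKO complexes against 7.88 and 7.26 in PR+/- complexes, and Inha and Inhba averaged 12.52 and 10.81 in PRKO complexes against 12.36 and 10.69 in PR+/- complexes. Of the 7 granulosa markers measured these brightest 2 had positive differences and the other 5 negative ones. The complexes hold several cell types, so fewer cells of a type and less RNA per cell cannot be told apart in any of these values.

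The start regions of 3 genes are shown because Slco2a1 and Ptgfr were the members that passed the test and Ptgs2 is the inducible step of the pathway. Each run is the RefSeq window of 300 bases on assembly GRCm38.p6, from 250 bases before the transcription start to 50 after it, written 5′ to 3′ on the gene's own strand. Capitals mark matches to the motifs searched on both strands: CANNTG, the E-box of basic helix-loop-helix factors, and TGACG, 1 arm of the cyclic AMP response element (CRE). One arm of the palindrome that progesterone and glucocorticoid receptors bind, TGTTCT, was searched too, as was the core of the whole palindrome, spelled ACANNNTGT. Neither had a match in these 3 windows. The Slco2a1 window is chr9:103008237-103008536, plus strand, the Ptgfr window chr3:151837479-151837778, minus strand, and the Ptgs2 window chr1:150099781-150100080, plus strand.
Slco2a1: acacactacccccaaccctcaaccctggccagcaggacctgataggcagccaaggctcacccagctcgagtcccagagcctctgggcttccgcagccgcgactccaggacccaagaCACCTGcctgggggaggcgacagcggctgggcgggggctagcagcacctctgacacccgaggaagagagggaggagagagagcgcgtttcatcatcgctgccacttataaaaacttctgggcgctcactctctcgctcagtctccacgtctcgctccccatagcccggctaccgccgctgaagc
Ptgfr: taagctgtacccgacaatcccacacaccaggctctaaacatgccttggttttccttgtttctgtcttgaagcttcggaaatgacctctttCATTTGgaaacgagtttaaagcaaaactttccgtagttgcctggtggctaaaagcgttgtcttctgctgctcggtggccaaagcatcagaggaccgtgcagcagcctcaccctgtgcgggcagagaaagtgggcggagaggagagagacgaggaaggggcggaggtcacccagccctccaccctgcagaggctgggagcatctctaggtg
Ptgs2: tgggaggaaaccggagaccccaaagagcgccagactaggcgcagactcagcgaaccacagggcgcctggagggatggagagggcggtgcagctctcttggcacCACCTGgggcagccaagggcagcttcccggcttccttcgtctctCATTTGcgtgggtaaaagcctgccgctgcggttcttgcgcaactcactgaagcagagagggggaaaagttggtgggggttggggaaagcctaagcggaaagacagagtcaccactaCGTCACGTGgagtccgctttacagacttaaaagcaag

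The Slco2a1 window held 1 E-box match, which begins at position -134 from the start, and the Ptgfr window 1, which begins at -160. The Ptgs2 window held 3, of which the one that begins at base 17 after the start overlaps the CRE arm, read on the opposite strand, that begins at base 14. E-box matches are common: 72.3% of the 32851 RefSeq windows of this length hold one, and 20.8% hold the CRE arm. The receptor arm occurs in 19.0% of all windows and the palindrome's core in 6.8%. Over the 11 windows of the 10 members, the receptor arm was present in 3, those of Ptges, Ptger2 and the second start of Pla2g4a, and the core in 1, that of Hpgd. These are matches of letters in short windows and were not tested for binding. Slco2a1 lies on chromosome 9, the chromosome of Pgr, with 94.1 Mb between the starts of their RefSeq windows. Pla2g4a and Ptgs2 are neighbouring protein-coding genes on chromosome 1, as are Ptger2 and the prostaglandin D receptor gene Ptgdr on chromosome 14.

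The comparison asked which steps of prostaglandin handling differ in transcript level when the progesterone receptor is lost. The uptake carrier gene Slco2a1 fell 3.38-fold in PRKO complexes, and the receptor gene Ptgfr rose 1.35-fold. The genes of arachidonate release and prostaglandin synthesis, the inactivating enzyme and both prostaglandin E receptors did not pass the test. That makes 2 of 10 members past a limma adjusted p of 0.05, 1 in each direction, where 2.92% of all 19938 genes passed (1.43% higher and 1.48% lower in PRKO). Those were 286 genes higher and 296 lower, against 173 and 303 after quantile normalization and 166 and 303 after centring each array on its median. The PRKO and PR+/- arrays did not overlap for the same 2 members, a property that 10.2% of all genes shared. The members' differences had a median of 0.026 (all genes, 0.004) and ran from -1.76 to 0.43 on the log2 scale.

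**Figure D1:**
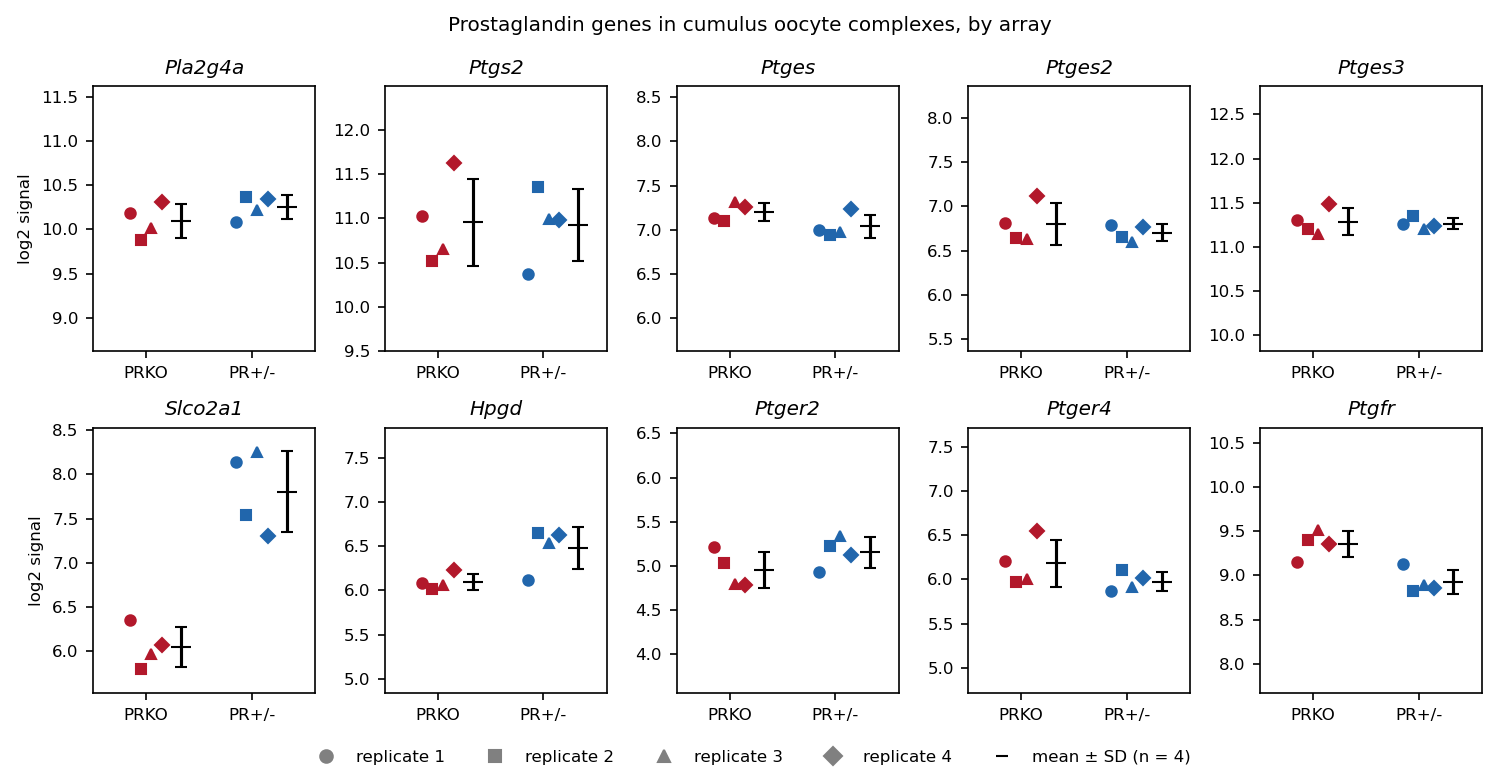
Log2 signal of each of the 10 genes (vertical axis, spanning 3 log2 units in every panel) on the 4 PRKO arrays (red, left) and the 4 PR+/- arrays (blue, right), with a symbol for each replicate number and black bars for the mean ± SD of 4 arrays. The genotypes are apart for Slco2a1 and, narrowly, for Ptgfr, and they overlap for the other 8 genes.

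Synthesis begins with Pla2g4a, which encodes the calcium-dependent cytosolic phospholipase that frees arachidonic acid. Its signal was 10.19, 9.88, 10.01 and 10.31 in PRKO replicates 1 to 4, against 10.08, 10.36, 10.22 and 10.34 in PR+/- replicates 1 to 4. The genotypes overlapped, and the difference was -0.16 ± 0.11 (SE, limma adjusted p = 0.532), with a 95% interval from -0.39 to 0.08.

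Ptgs2, the inducible cyclooxygenase, had the largest spread of the members among PRKO arrays and, after Slco2a1, among PR+/- arrays. Its signal was 11.03, 10.52, 10.65 and 11.62 in PRKO replicates 1 to 4, against 10.37, 11.35, 10.99 and 10.98 in PR+/- replicates 1 to 4. The highest array of all was a PRKO array and the lowest a PR+/- array, while the genotype means were nearly equal. The mean was 10.95 ± 0.49 in PRKO and 10.92 ± 0.41 in PR+/- complexes (SD, n = 4 each), and the limma adjusted p was 0.967. The 95% interval of the difference, -0.48 to 0.54, spans 28.3% lower to 45.7% higher in PRKO. Changes within those limits are therefore not excluded by these arrays.

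The 3 genes named as prostaglandin E synthases encode unlike proteins. Ptges, the membrane synthase that is induced together with the inducible cyclooxygenase, read 7.13, 7.10, 7.31 and 7.26 in PRKO replicates 1 to 4. In PR+/- replicates 1 to 4 it read 7.0, 6.94, 6.98 and 7.23. Of the PR+/- arrays, 3 lay below every PRKO array and replicate 4 lay among them. The difference was 0.16 ± 0.09 (SE, limma adjusted p = 0.432), with a 95% interval whose upper end is 27.9% higher in PRKO.

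Ptges2, a second membrane-associated synthase, averaged 6.80 ± 0.23 in PRKO and 6.70 ± 0.09 in PR+/- complexes (SD, n = 4 each; limma adjusted p = 0.734). PRKO replicate 4, at 7.12, stood above the other 7 arrays, which lay between 6.60 and 6.81. Ptges3, better known as the co-chaperone p23 that joins HSP90 in steroid receptor complexes, the progesterone receptor's among them, had 3 probe sets. The brightest averaged 11.28 ± 0.15 in PRKO and 11.26 ± 0.06 in PR+/- complexes. The differences of the 3 probe sets were 0.022, 0.035 and 0.126, with limma adjusted p of 0.936, 0.90 and 0.595. The interval for the brightest, -0.17 to 0.22, was the narrowest among the members.

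Slco2a1 encodes the prostaglandin transporter, an organic anion carrier that moves prostaglandins from outside the cell into the cytosol. Its signal was 6.35, 5.80, 5.97 and 6.07 in PRKO replicates 1 to 4, against 8.14, 7.54, 8.25 and 7.30 in PR+/- replicates 1 to 4. Every PRKO array lay below every PR+/- array, with a gap of nearly a log2 unit between the nearest arrays. The mean was 6.05 ± 0.23 in PRKO and 7.81 ± 0.46 in PR+/- complexes (SD, n = 4 each). The difference of -1.76 ± 0.19 (SE) had a limma adjusted p of 0.000458, and its 95% interval, -2.18 to -1.34, corresponds to 60.5% to 77.9% less signal. By size it was the 16th of the 296 genes that were lower in PRKO, whose median difference was -0.67. The call held without any 1 array, at differences of -1.93 to -1.61, and ended in the linear model without moderation (-1.76, adjusted p = 0.0650).

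Within PR+/- complexes Slco2a1 was high in replicates 1 and 3 and low in replicates 2 and 4. The mean of 10 oocyte markers ran the other way, at 6.22, 6.85, 6.57 and 7.18 in PR+/- replicates 1 to 4, and so did Pgr, whose values are given above. In PRKO replicates 1 to 4 the oocyte mean was 6.71, 6.34, 6.50 and 7.05, and Slco2a1 was highest in replicate 1 and lowest in replicate 2. The oocyte mean and Pgr were also lowest in PRKO replicate 2, and were highest in PRKO replicate 4. They thus did not run opposite to Slco2a1 in PRKO complexes. With the oocyte mean as a covariate the genotype difference was -1.78, and the part of cell makeup in the spread within a genotype was not tested.

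Blood vessel cells express Slco2a1 in many organs, so markers of other cell types were read beside it. Of 8 endothelial markers 1 passed, where 2.92% of all genes did, and it was Kdr, a receptor of vascular endothelial growth factor. It averaged 6.54 in PRKO against 5.74 in PR+/- complexes (limma adjusted p = 0.0126). Of the 8 differences 5 were positive and 3 negative, from -0.29 to 0.80 with a median of 0.071. Egfl7 averaged 5.87 in PRKO and 5.79 in PR+/- complexes. The list mean ran from 5.11 to 5.25 in PRKO and from 5.00 to 5.08 in PR+/- arrays, with no overlap. With that mean as a covariate Slco2a1 differed by -1.68 with a limma adjusted p of 0.158, and 12 genes in all passed. As the mean did not overlap between genotypes, this fit cannot well tell it apart from genotype for any gene. Without Kdr the mean of the other 7 markers ran from 4.88 to 5.12 in PRKO and from 4.92 to 4.97 in PR+/- arrays. With this second mean, chosen after the data were seen, Slco2a1 differed by -1.78 (adjusted p = 0.000880).

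None of 8 leukocyte markers passed in limma (0 at an unadjusted p of 0.05), and their mean ran from 4.25 to 4.33 in PRKO and from 4.19 to 4.31 in PR+/- arrays. Cd68 and Csf1r, their brightest, averaged 5.85 and 5.06 in PRKO against 5.63 and 5.00 in PR+/- complexes. None of 9 theca and stroma markers passed either. An unadjusted p under 0.05 was found for 3 of the 9, where 16.0% of all genes had one. Of the 9 differences 7 were positive and 2 negative, with a median of 0.241. The mean of these markers ran from 5.52 to 6.14 in PRKO and from 5.49 to 5.85 in PR+/- arrays. Acta2 and Col1a1, their brightest, averaged 7.49 and 6.90 in PRKO against 7.02 and 6.79 in PR+/- complexes. Of 7 granulosa markers 1 passed, Fshr, the follicle-stimulating hormone receptor, named after its value was seen. Fshr fell by 1.06 (limma adjusted p = 0.00221) and none passed as higher, where 2.92% of all genes passed in either direction. An unadjusted p under 0.05 was found for 3 of the 7, where 16.0% of all genes had one. Of the 7 differences 5 were negative, with a median of -0.285. The genotypes did not overlap for 2 of these 7 markers, a property that 10.2% of all genes shared. The list mean ran from 8.22 to 8.56 in PRKO and from 8.46 to 8.89 in PR+/- arrays, so it was lower in PRKO on average, as Slco2a1 was, and its part in the members' differences was not tested. None of 10 oocyte markers passed (0 at an unadjusted p of 0.05). No signal on these arrays was under 1.19, so a value for a marker does not by itself show that its cell type was present.

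The 5 genes whose profile over the 8 arrays lay nearest to that of Slco2a1 were Rnf125, Abhd2, Tbc1d8, Gnao1 and Efnb2. Likeness was the root mean square distance between profiles centred on their own means, and it was 0.15 to 0.18 log2 units for these genes. Rnf125 encodes a ubiquitin ligase, Abhd2 a lipid hydrolase that in human sperm responds to progesterone, Tbc1d8 a protein with a TBC domain, Gnao1 a G protein alpha subunit and Efnb2 an ephrin. Their differences were -1.78, -1.64, -1.95, -1.66 and -1.89. In each of them PR+/- replicate 4 was the lowest PR+/- array, at 9.54 for Rnf125, 10.79 for Abhd2, 8.23 for Tbc1d8, 7.0 for Gnao1 and 7.67 for Efnb2, as it was for Slco2a1. The distance was computed from these same values, so their likeness is a description.

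**Figure D2:**
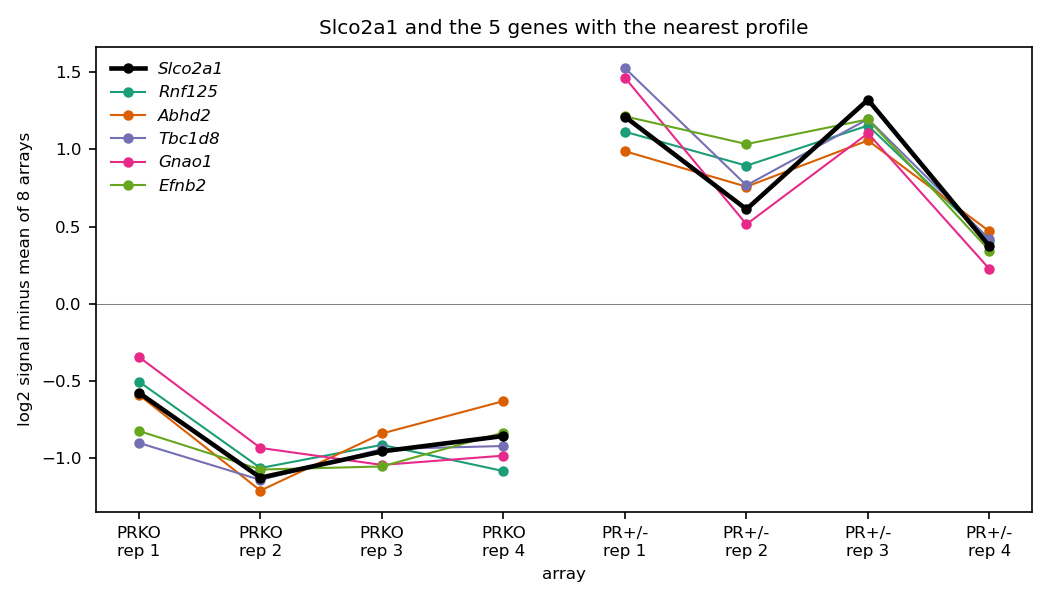
Log2 signal of Slco2a1 (black) and of its 5 nearest genes (colours) on each array, after subtraction of each gene's mean over the 8 arrays; the horizontal axis lists PRKO arrays first. All 6 genes lie below their mean on the PRKO arrays and above it on the PR+/- arrays, with PR+/- replicate 4 the lowest of its genotype.

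Hpgd encodes the dehydrogenase that takes the first step of prostaglandin inactivation inside the cell. Its signal was 6.08, 6.02, 6.06 and 6.23 in PRKO replicates 1 to 4, against 6.12, 6.65, 6.53 and 6.62 in PR+/- replicates 1 to 4. Of the PR+/- arrays, 3 lay above all PRKO arrays, and replicate 1 lay among them. The difference was -0.38 ± 0.11 (SE), with an unadjusted p of 0.00580, as 16.0% of all genes had an unadjusted p under 0.05, and a limma adjusted p of 0.112. It passed without PR+/- replicate 1 (-0.50, adjusted p = 0.0152) and with the oocyte mean as a covariate (-0.36, adjusted p = 0.0457), and over all 22 alternatives the difference ran from -0.55 to -0.33.

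Ptger2 and Ptger4 encode the EP2 and EP4 receptors, which raise cyclic AMP when prostaglandin E binds. Ptger2 read 5.21, 5.03, 4.80 and 4.78 in PRKO replicates 1 to 4, against 4.93, 5.23, 5.34 and 5.13 in PR+/- replicates 1 to 4. The genotypes overlapped, the difference was -0.20 ± 0.12 (SE, limma adjusted p = 0.446), and the 95% interval ran from 27.0% lower to 3.77% higher. This probe set had the lowest mean of the members, below the median of 5.72 over all probe sets tested, and with an unknown background its differences may be compressed.

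Ptger4 read 6.21, 5.97, 6.0 and 6.55 in PRKO replicates 1 to 4, against 5.87, 6.11, 5.91 and 6.01 in PR+/- replicates 1 to 4. PRKO replicates 1 and 4 lay above the PR+/- arrays and the other two among them. The difference was 0.21 ± 0.12 (SE, limma adjusted p = 0.452), with an interval from -0.06 to 0.47.

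Ptgfr encodes the FP receptor for prostaglandin F, which acts through calcium signals and is known in the ovary for its part in regression of the corpus luteum. Its signal was 9.15, 9.40, 9.51 and 9.35 in PRKO replicates 1 to 4, against 9.13, 8.82, 8.89 and 8.86 in PR+/- replicates 1 to 4. All PRKO arrays lay above all PR+/- arrays, though the nearest pair, replicate 1 of each genotype, was almost level. The mean was 9.36 ± 0.15 in PRKO and 8.93 ± 0.14 in PR+/- complexes (SD, n = 4 each). The difference of 0.43 ± 0.10 (SE) had a limma adjusted p of 0.0418 and a 95% interval from 0.21 to 0.65, and it was the 196th by size of the 286 genes that were higher in PRKO. The call ended without any 1 array other than PRKO replicate 1 or PR+/- replicate 1 (adjusted p 0.0855 to 0.126), after quantile normalization (0.0700) and after centring the arrays (0.0592). Among other alternatives it also ended in the linear model without moderation (0.158), with all probe sets tested (0.106) and with the endothelial covariate (0.104). Ptgfr passed in 10 of the 22 alternatives. The difference itself stayed between 0.38 and 0.75 over all 22 alternatives.

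**Figure D3:**
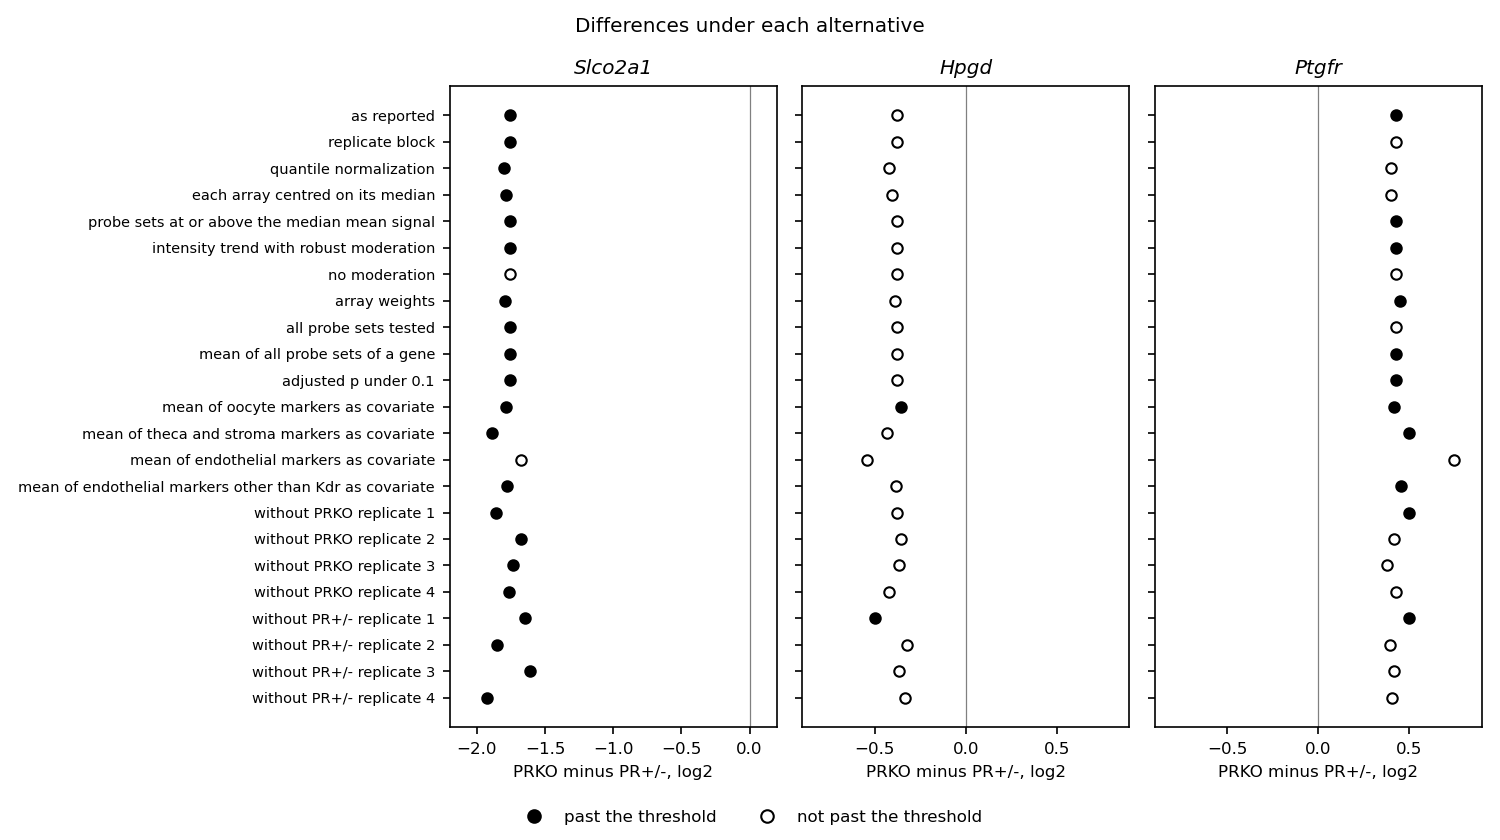
Genotype difference (PRKO minus PR+/-, log2) of Slco2a1, Hpgd and Ptgfr under each alternative; filled circles passed the threshold and open circles did not. Slco2a1 lies between -1.93 and -1.61 and passes in 20 of the 22 alternatives, Ptgfr passes in 10 and Hpgd in 2.

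Within a genotype several members had their highest or lowest value on the same array. Among PRKO arrays replicate 4 was the highest for 6 of 10 members and replicate 2 the lowest for 6. Among PR+/- arrays replicate 2 was the highest for 5 and replicate 1 the lowest for 5. Such counts were not taken over all genes. Some members went the other way: PRKO replicate 4 was the lowest for 1, PR+/- replicate 2 the lowest for 2 and PR+/- replicate 1 the highest for 2 members. The 3 cumulus expansion genes read beside them, Has2, the hyaluronan synthase, Tnfaip6, which transfers heavy chains onto hyaluronan, and Ptx3, which links them, shared with Ptgs2 the highest and the lowest of the 8 arrays. Their values in PRKO replicate 4 were 8.45, 11.68 and 10.53, and in PR+/- replicate 1 they were 7.08, 10.39 and 9.47. Their genotype differences were 0.04, 0.16 and 0.11, with limma adjusted p of 0.958, 0.779 and 0.836. The oocyte marker mean was also highest among PRKO arrays in replicate 4 (7.05) and lowest of all arrays in PR+/- replicate 1 (6.22), and its part in these values was not tested. Without PRKO replicate 4 the Ptgs2 difference was -0.19 and without PR+/- replicate 1 it was -0.15, each opposite in sign to the 0.03 of all arrays.

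**Figure D4:**
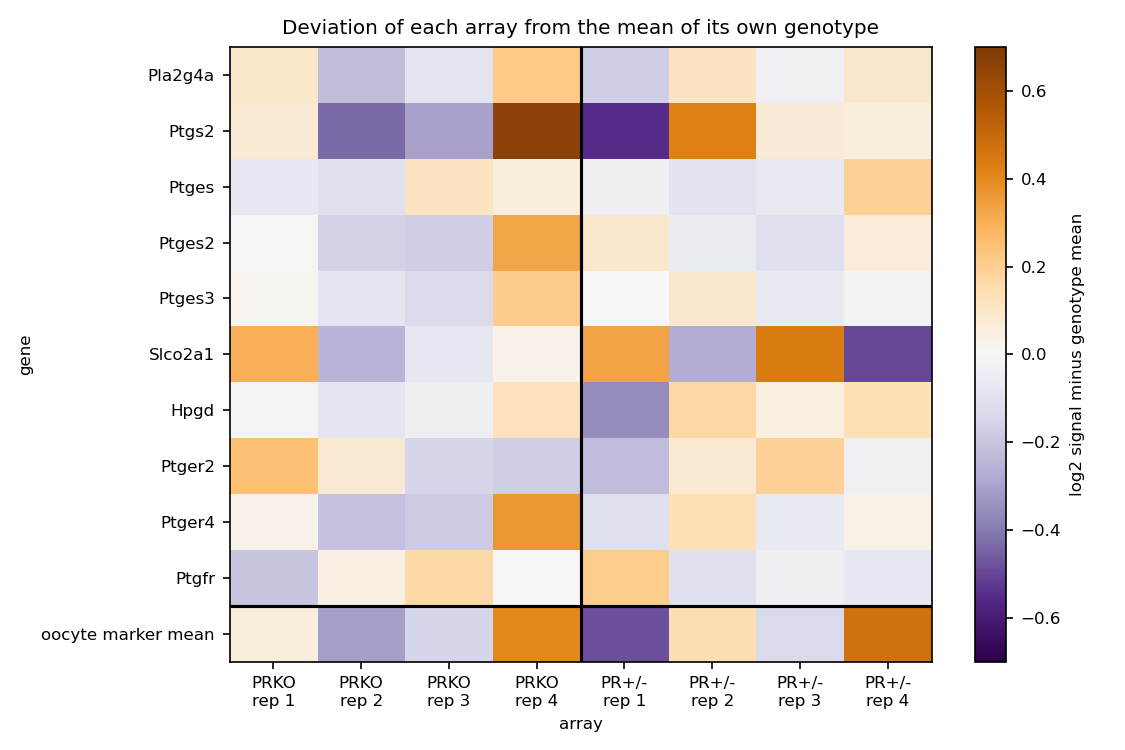
Deviation of each array from the mean of its own genotype, in log2 units by colour, for the 10 genes (rows) on the 8 arrays (columns, PRKO left), with the mean of the 10 oocyte markers in the bottom row. Ptgs2 reaches 0.66 in PRKO replicate 4 and -0.55 in PR+/- replicate 1, and Slco2a1 spans -0.50 to 0.44 among PR+/- arrays.

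Beyond the 10 members, 31 of 34 other genes of the pathway were measured, and 0 passed in limma, where 2.92% of all genes passed. An unadjusted p under 0.05 was found for 6 of the 31, where 16.0% of all genes had one, so both counts lay near those of all genes. Of their differences 20 were positive and 11 negative, with a median of 0.074. Of 9 genes of arachidonate supply 0 passed (1 at an unadjusted p of 0.05), and Pla2g10, a secreted phospholipase, had the largest difference at -0.23 ± 0.11 (SE, limma adjusted p = 0.342). Of 7 other synthases 0 passed (2 unadjusted). Cbr3, a carbonyl reductase whose close relative Cbr1 can reduce prostaglandin E to prostaglandin F, read 5.21, 4.88, 4.83 and 5.75 in PRKO replicates 1 to 4, against 4.59, 4.42, 4.75 and 4.04 in PR+/- replicates 1 to 4. Its genotypes did not overlap, as in 10.2% of all genes, and its difference of 0.71 ± 0.20 had an adjusted p of 0.0867. Cbr1 itself was at 0.25 ± 0.09 (0.219).

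Of the 3 reductases of the later steps of breakdown 0 passed (1 unadjusted), and Zadh2 was at 0.23 ± 0.09 (limma adjusted p = 0.241). Of 5 other transporters, among them the exporter Abcc4 and the Slco2a1 relatives Slco2b1, Slco3a1 and Slco4a1, 0 passed (1 unadjusted), and their differences ran from -0.20 to 0.15. Of 6 other prostanoid receptors and Ptgfrn, a membrane protein that inhibits the binding of prostaglandin F to its receptor, 0 passed (1 unadjusted), and Ptgfrn had the largest difference at -0.36 ± 0.14 (0.241). Ptgs1, Akr1b3 and Pla2g4b were not analysed here.

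**Figure D5:**
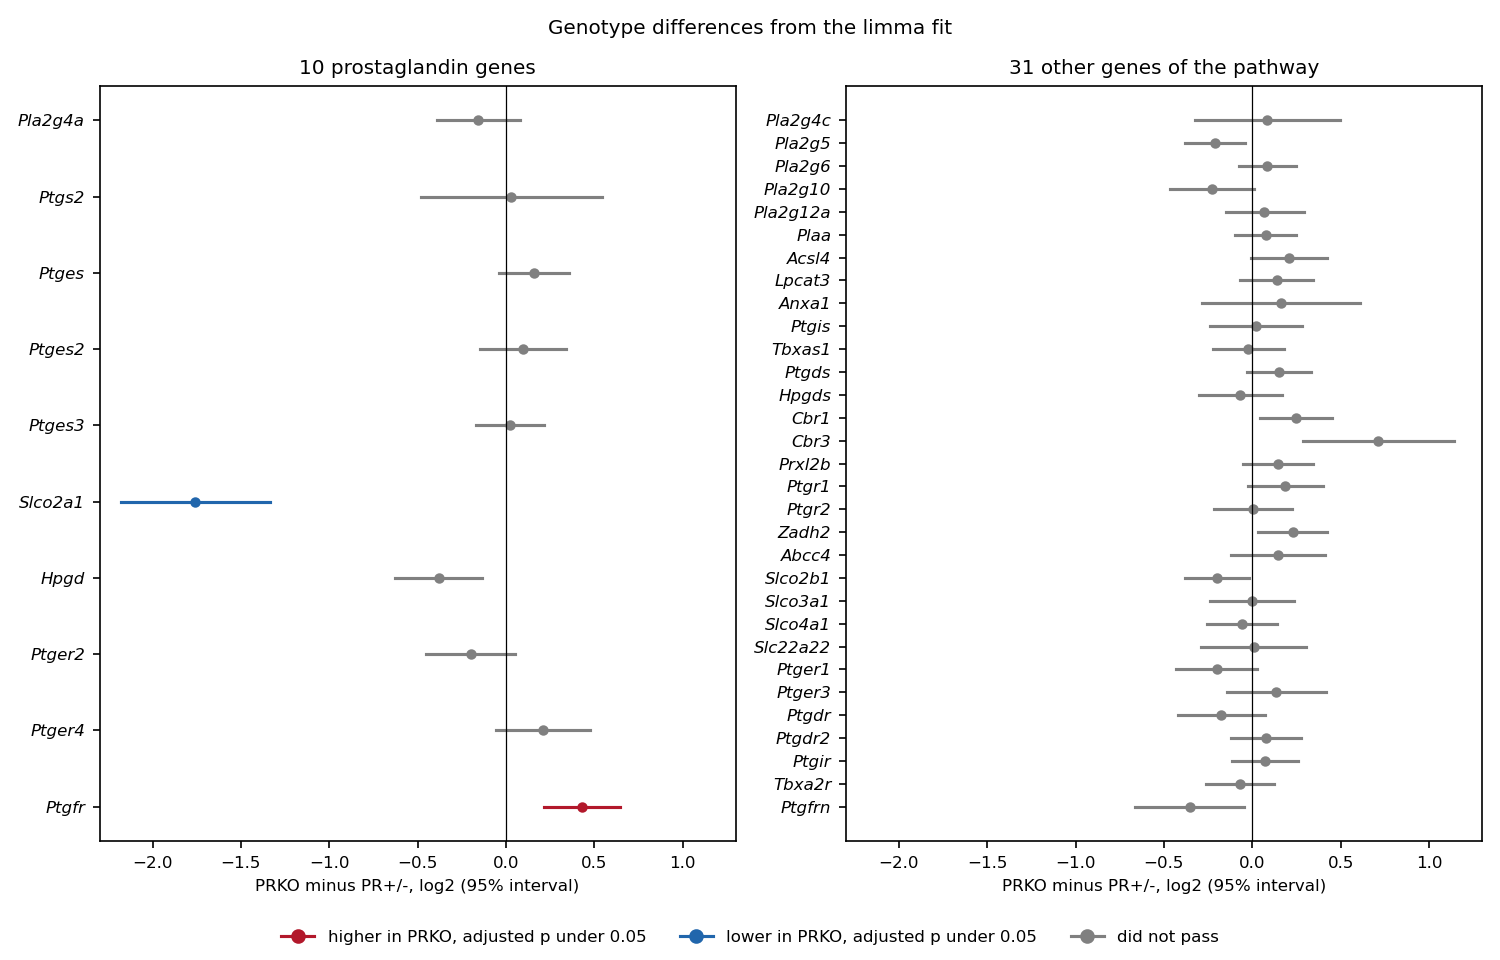
Genotype differences (PRKO minus PR+/-, log2) with 95% intervals from limma, for the 10 members (left panel, ordered by role) and 31 other genes of the pathway (right panel); red and blue mark genes past an adjusted p of 0.05 and grey those that did not pass. Slco2a1 at -1.76 lies far from every other gene shown, and no gene of the right panel passed.

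Transcription factors known to act on the Ptgs2 promoter were read last. Of 6 measured, Cebpb, a leucine zipper factor of luteinising granulosa cells, fell by 0.57 ± 0.10 (SE, limma adjusted p = 0.00966) and 5 did not pass. Over all genes 2.92% passed, 1.48% of them as lower in PRKO. Cebpb read 8.52, 8.33, 8.54 and 8.75 in PRKO replicates 1 to 4, against 9.19, 9.17, 9.10 and 8.94 in PR+/- replicates 1 to 4. The genotypes thus did not overlap, a property that 10.2% of all genes shared. Cebpd (-0.067), Usf1, an E-box binding factor (-0.003), Creb1 (0.12), Rela (-0.028) and Egr1 (0.09) had limma adjusted p of 0.547 to 0.993. Nfkb1 was not analysed here.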

How the data were processed

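RNA of 4 PRKO and 4 PR+/- pools was amplified and labelled for Affymetrix whole-transcript arrays, per the labels' protocols. The authors deposited log2 signals by probe set and array, from 1.19 to 14.08; base 2 was inferred because other bases would pass the 65535 limit of a 16-bit scanner. The submitters' processing notes name Partek, with no version or settings; how signals were normalized is not stated in the sources used here. Of 35556 probe sets, the 21789 with exactly 1 gene symbol were tested, not the 1621 with several or the 12146 without, and a gene was read by its probe set with the highest mean (19938 genes). Entrez identifiers of 21698 matched RefSeq (GRCm38.p6), which also gave promoter windows and neighbours.

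Differences are PRKO minus PR+/-, fitted with limma 3.58.1 in R 4.3.3 (lmFit and eBayes with 6.04 prior degrees of freedom), two-sided, with Benjamini-Hochberg adjustment over all 21789 probe sets, a threshold of 0.05 and 95% intervals from moderated standard errors. The fit was tested on simulated data. Pools are separate samples of 3 animals, and 4 arrays per genotype limit the precision. Replicate numbers were not treated as pairs. Members, lists and alternatives were chosen with earlier results of these data known. Named genes were the members, Pgr, any other pathway gene past the threshold and the 5 others with the largest differences, the regulators of Ptgs2, the expansion genes, the 2 brightest markers of each cell type list and the 5 genes nearest to Slco2a1. Alternatives changed the block, normalization, signal filter, moderation, weights, probe sets, threshold, marker covariates and the arrays included. Tables used pandas 2.3.3 and numpy 2.4.6 in Python 3.11.15, and figures matplotlib 3.10.9.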

Additional observations from a re-analysis of the deposited data

How the results depend on the processing

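Every member was recomputed under 22 alternatives, 21 for Ptger2, which the filter on mean signal removed. Pla2g4a, Ptges, Ptger2 and Ptger4 kept their direction and did not pass in any of them. The number of members past the threshold, 2 as reported, was 1 with the replicate block, after quantile normalization, after centring and with all probe sets tested, 0 without moderation and 0 with the endothelial covariate, and 1 to 3 without 1 array; the member lost in each case of 1 was Ptgfr. Its difference was 0.429 with the replicate block, without moderation and with all probe sets, 0.398 after quantile normalization, 0.402 after centring and 0.746 with the endothelial covariate, and 0.376 to 0.497 without 1 array. Slco2a1 did not pass without moderation (-1.759) or with the endothelial covariate (-1.677). Hpgd passed with the oocyte covariate (-0.359) and ran from -0.499 to -0.325 without 1 array. Directions near 0 turned: Ptgs2 was at -0.035 with array weights, -0.17 with the theca and stroma covariate, -0.252 with the endothelial covariate and -0.189 to 0.177 without 1 array; Ptges3 was at -0.005 after centring, -0.013 and -0.006 with those covariates and -0.047 to 0.068 without 1 array; Ptges2 was at -0.011 to 0.155 without 1 array. Pgr did not pass with an intensity trend, without moderation or with all probe sets (-1.089), with the endothelial covariate (-1.539) or with that covariate without Kdr (-1.095), and ran from -1.319 to -0.903 without 1 array, passing only without PRKO replicate 4 or PR+/- replicate 1 (adjusted p up to 0.13 otherwise); it passed in 11 of 22 alternatives. The other pathway genes had 1 past an adjusted p of 0.1. Over all genes the 582 calls became 106 without moderation, 206 with all probe sets, 371 with the theca and stroma covariate, 12 with the endothelial covariate, 932 at an adjusted p of 0.1 and 301 to 532 without 1 array. The cause of these shifts was not tested, except that testing all probe sets adjusts over more of them. Same-numbered arrays of the genotypes deviated with correlations of 0.08 to 0.15 over probe sets, within the -0.21 to 0.22 of arrays with different numbers. Of 8 arrays 4 correlated best with their own number. The replicate block, given as a hint from the data only, changed no member's call other than that of Ptgfr.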
